A study of Arabidopsis thaliana with 6 samples.

Results

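The 10 genes described here carry microRNAs (miRNAs) from transcription to silencing in Arabidopsis thaliana. They were given as a list of loci, not chosen by a threshold, and are 10 of the 33602 genes counted. Their transcripts were divided into 140 of 158089 exon bins and 123 of 128782 intron bins, and 170 of 173425 splice junctions were counted within them. Whole plants of the Columbia accession Col-0 were compared with plants of the same background that carry a mutation in PRMT5, which encodes a protein arginine methyltransferase, in 3 libraries per genotype. All plants were grown on Murashige and Skoog medium with 0.8% agarose. They were kept for 4 days in the cold at 4 °C and then grown for 15 days at 22 °C under continuous white light, with no treatment in either group. The source was labelled a pool of tissues, and which mutant allele was used is not given in those sources. Each library was made from 3 µg of total RNA by selection of polyadenylated RNA, so mature miRNAs themselves were not measured. In bulk plants, fewer cells of a type and less RNA per cell cannot be told apart.

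In plants a miRNA gene is transcribed by RNA polymerase II into a capped primary transcript that folds into a hairpin. The nuclear RNase III enzyme DCL1 cuts the hairpin with the help of the zinc finger protein SE and the double-stranded RNA binding protein HYL1, while the cap-binding pair CBP20 and CBP80 and the forkhead-associated protein DDL bind the transcript or DCL1. HEN1 then methylates the 3′ ends of the duplex, HST is the exportin-5 homologue, and AGO1 loads most miRNAs and cleaves their targets. AGO2 loads another set of small RNAs, acts in antiviral defence and has been reported as a substrate of PRMT5. The pathway is known to regulate itself: miR162 targets DCL1, miR168 targets AGO1, miR403 targets AGO2, and miR838 is cut from an intron of DCL1.

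The mature forms of these 4 feedback miRNAs were read from the TAIR10.1 reference genome at their annotated coordinates (annotation by RefSeq) and are shown because each meets a transcript described below. They are written 5′ to 3′ with the seed, bases 2 to 8, in capitals. No pair of the 4 shares a seed, and the copies at the second miR162 and miR168 loci are identical to those shown.
miR162a-3p (5:2634936-2634956, minus strand): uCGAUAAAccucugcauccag
miR168a-5p (4:10578652-10578672, plus strand): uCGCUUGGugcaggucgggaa
miR403-3p (2:19415154-19415174, plus strand): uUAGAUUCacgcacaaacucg
miR838 (1:28635-28655, plus strand): uUUUCUUCuacuucuugcaca

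The complementary sites in the 3 targets are written below 5′ to 3′ on the coding strand, with capitals at bases that do not pair with the miRNA or pair as G with U. The site in DCL1 is split by an intron, so that 12 of its bases lie at the end of an exon and 10 at the start of the next exon, and it pairs without a mismatch apart from 1 unpaired base. The site in AGO1 lies in coding sequence, with 2 mismatches and 1 G to U pair. The site in AGO2 lies in the 3′ UTR, with 1 mismatch.
DCL1 site (1:27522-27533 and 1:27618-27627, plus strand): ctggatgcagaggtAttatcga
AGO1 site (1:17891529-17891549, minus strand): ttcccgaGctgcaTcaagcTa
AGO2 site (1:11185223-11185243, plus strand): Ggagtttgtgcgtgaatctaa

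Total gene counts lay between 29145068 and 59480457 per library. PRMT5 itself had 35.5, 29.4 and 30.9 CPM (counts scaled to library size by the factors of edgeR) in the wild type libraries, against 56.0, 58.7 and 53.7 CPM in the mutant libraries, so its transcript was not lost. A single intron of PRMT5, picked by hand, had 15, 5 and 8 reads in wild type, against 196, 301 and 206 in the mutant. These are raw reads, not scaled to the gene, and its other introns are not given here. Reads were denser toward the 3′ ends of genes, to an extent that varied. On the log2 scale, density in the last over the first part of a gene had a median over 8922 genes of 1.88, 1.40 and 1.49 for the wild type replicates in order, against 0.84, 0.90 and 1.48 for the mutant replicates. A fit with this index as a covariate is therefore given beside the members' results whose call or direction it changes; the part of coverage in those results was not tested further. Organ markers also moved with genotype. All 3 leaf genes were called lower in the mutant: RBCS1A lay at 17460 to 19080 CPM in wild type and 13570 to 14030 CPM in the mutant, LHCB1.1 at 3167 to 5096 and 1024 to 1970 CPM, and LHCB2.1 at 1291 to 2396 and 744.4 to 1274 CPM. The root gene PYK10 overlapped between the groups, at 886.7 to 1407 and 836.9 to 923.6 CPM. The flower genes AP1, AP3, PI, AG and SEP3 and the seed gene CRA1 were all below 5 CPM in every library, though AP1 and PI were called lower in the mutant. The part of organ composition in the results below was not tested.

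Over the 10 genes, the levels of 4 rose in the mutant and none fell: the exportin gene HST, the cap-binding gene CBP80, SE and AGO1. The other 6, DCL1, HYL1, DDL, CBP20, HEN1 and AGO2, did not pass the test. A gene was called when the quasi-likelihood F-test of edgeR gave an adjusted p under 0.05 over all 21949 genes tested, a threshold that 18.6% of all tested genes passed as higher and 15.9% as lower. The count of members that rose is thus to be read against a background in which 34.5% of genes changed. The groups did not overlap, with the mutant higher, in the same 4 members, against 24.6% of all tested genes. The median log2 change of the members was 0.16, against -0.02 for all tested genes. With the coverage covariate, under which 11% of genes were called higher, 2 members stayed called, HST and CBP80.

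**Figure D1:**
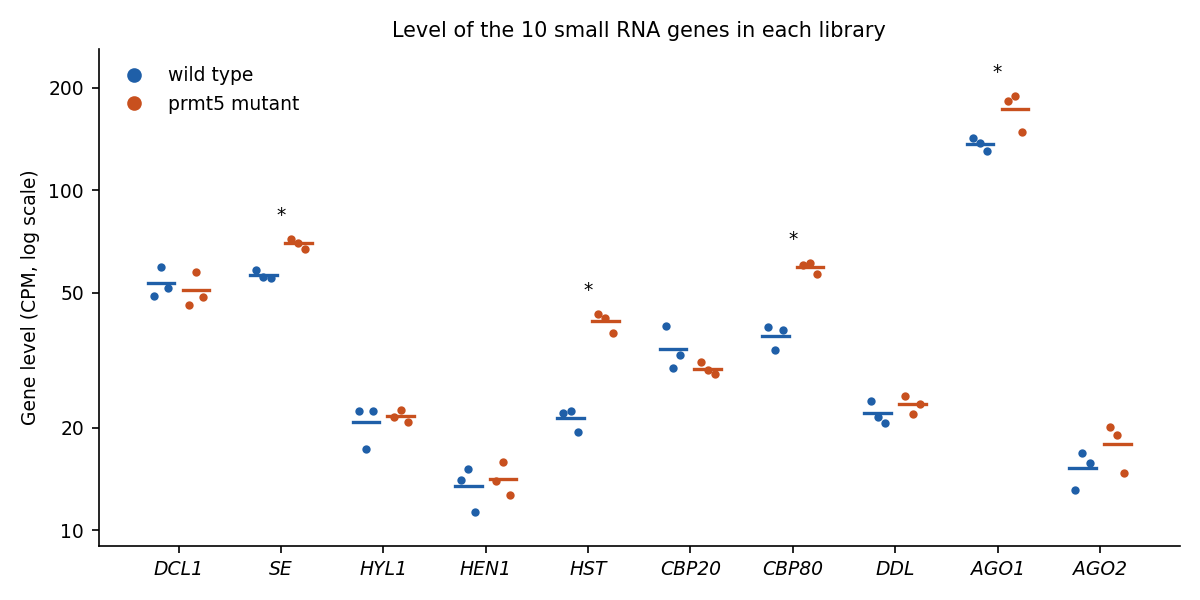
Level of each gene in CPM (log scale) in the 3 wild type (blue) and 3 mutant (orange) libraries; points are libraries, short lines are group means and asterisks mark genes called higher. The groups do not overlap for SE, HST, CBP80 and AGO1, and AGO1 is the most abundant by this measure, between 130.9 and 189.6 CPM.

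The members also differed in level per length. In wild type the order of RPKM (reads per kilobase of exon, scaled to library depth as CPM are) was AGO1 with 38.7, CBP20 with 26.8, SE with 22.5, DDL with 17.2, CBP80 with 13.1, HYL1 with 12.3, DCL1 with 8.53, HST with 5.44, AGO2 with 4.56 and HEN1 with 4.13. Over the libraries, CBP80 overlapped HYL1, HST overlapped AGO2 and AGO2 overlapped HEN1, and the other neighbours did not overlap. In the mutant, SE at 27.9 RPKM stood above CBP20 at 23.4, CBP80 at 20.7 above DDL at 18.3, and HST at 10.5 above DCL1 at 8.11, each without overlap of the libraries.

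DCL1 (AT1G01040, chromosome 1, 23146 to 31227, plus strand) encodes the enzyme that makes nearly all miRNAs. Its level was 48.9, 59.5 and 51.7 CPM in the wild type libraries, against 46.1, 57.7 and 48.4 CPM in the mutant libraries. The groups overlapped, and the log2 change was -0.07 ± 0.11 (SE, n = 3 each; edgeR adjusted p = 0.646). The corresponding fold of 0.95 had an approximate 95% interval from 0.82 to 1.11. The 3′ end of DCL1 overlaps the annotated gene AT1G01050, so counts there are uncertain.

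The intron of DCL1 that holds the miR838 hairpin was the intron of this gene with the most reads. This intron 14 (chromosome 1, 28432 to 28707) held 47, 80 and 41 reads in wild type, against 48, 64 and 39 in the mutant, between 57.4% and 73.2% of all reads in the 19 introns of the gene. The MIR838 locus, counted separately, lies inside it at 28500 to 28706 and drew 43, 77 and 38 reads in wild type, against 46, 59 and 39 in the mutant. These are largely the same reads and no second measurement.

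Spliced reads of intron 14 came to 14, 26 and 17 in wild type, against 23, 8 and 22 in the mutant, fewer than the intron reads in all 6 libraries, though an intron of 276 bases can catch more reads than a junction. The retained form reads into a stop at codon 2, counted from the codon at the splice site. Relative to the gene, the intron changed by 0.08 ± 0.25 on the log2 scale (SE; edgeR adjusted p = 0.854), with the groups overlapping, and the sign turned with the coverage covariate (-0.08) and without mutant replicate 1 (-0.01). Read density differed across the intron. Exon bins after intron 14 held 9.43, 5.61 and 8.67 times as many reads per kilobase as those before it in the wild type libraries, against 3.26, 4.20 and 8.27 times in the mutant libraries.

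**Figure D2:**
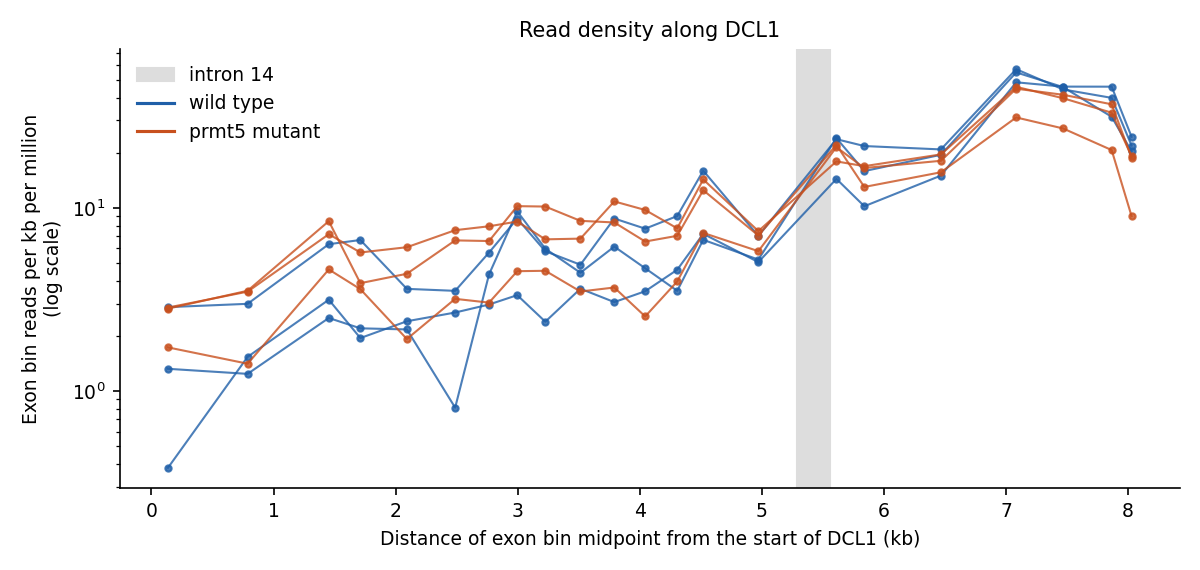
Read density (CPM per kilobase, log scale) in the 22 exon bins of DCL1 of at least 50 bases, by distance of the bin's midpoint from the start of the gene (kb), in each wild type (blue) and mutant (orange) library; the grey band is intron 14. In every library but mutant replicate 1 all bins right of the band lie above all bins left of it, and mutant replicates 1 and 2 and wild type replicate 2 are the higher lines on the left.

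This slope along DCL1 was steep even among genes of like length. The log2 ratio of density in the last over the first part of the gene was 3.99, 3.06 and 4.15 in wild type, against 2.31, 2.61 and 3.77 in the mutant. These values stood at the 96.8th to 99.0th percentile of the 8922 genes of each library, and at the 83.5th to 95.7th percentile of the 418 genes with at least 4000 exonic bases. Mutant replicates 1 and 2 had the lowest ratios, as they did over all genes, and mutant replicate 3 lay among the wild type libraries. The slope was thus present in both genotypes.

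Splicing decides whether the miR162 site shown above exists in DCL1 mRNA. The junction that joins its 2 pieces (intron 27534 to 27617) had 10, 40 and 10 reads in wild type, against 20, 23 and 11 in the mutant. An annotated donor 3 bases further downstream, which inserts 3 bases into the site, had 0, 6 and 2 reads in wild type, against 2, 2 and 4 in the mutant. The site was intact in 88.2% of 68 such reads in wild type (exact 95% binomial interval 78.1% to 94.8%) and 87.1% of 62 in the mutant (76.2% to 94.3%). The junctions were too shallow to be tested, and intervals here cover counting error only.

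SE (AT2G27100, chromosome 2, 11572550 to 11576658, plus strand) links the cap-binding pair to DCL1. Its level was 58.3, 55.7 and 55.1 CPM in wild type, against 72.0, 70.2 and 67.3 CPM in the mutant. All mutant libraries were above all wild type libraries, and SE rose by 0.31 ± 0.09 on the log2 scale (SE of the estimate, n = 3 each; edgeR adjusted p = 0.0178). The rise kept its size under every alternative but was no longer called with the coverage covariate (0.29; adjusted p = 0.114), nor without wild type replicate 2 (0.0562) or 3 (0.0851) or mutant replicate 1 (0.0511) or 2 (0.0584).

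Of 5 tested introns of SE, 3 were called higher relative to the gene and 0 lower. Over all tested introns, 26.7% were called higher and 1.21% lower. Intron 3 (chromosome 2, 11573620 to 11573957) held 12, 42 and 21 reads in wild type, against 67, 114 and 78 in the mutant, or 1.07 ± 0.47 and 3.34 ± 0.60 reads per 100 gene reads (SD, n = 3). The mutant libraries were all above wild type, and the intron rose by 1.64 ± 0.30 relative to the gene (edgeR adjusted p = 8.08e-05). Introns 9 and 10 rose by 1.39 and 1.32 (adjusted p = 0.0409 and 0.00494), but with the coverage covariate they were 1.68 (adjusted p = 0.0892) and 0.98 (0.261), not called. Intron 10 also lost its call without mutant replicate 2 (1.08, adjusted p = 0.0666), and intron 9 lost its call with DESeq2 (0.0828), with a minimum of 5 reads (0.0547) and when any 1 library was left out. Introns 5 and 11 changed by 0.56 and -0.37 and were not called (adjusted p = 0.521 and 0.513). Counted from the codon at the splice site, retention of introns 3 and 10 puts a stop in frame at codons 31 and 2. Intron 9 holds no stop in the frame it is entered, but its 115 bases are not a multiple of 3, so its retention shifts the frame after it.

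HYL1 (AT1G09700, chromosome 1, 3137767 to 3140353, minus strand) helps DCL1 place its cuts. Its level was 22.4, 17.4 and 22.5 CPM in wild type, against 21.5, 22.6 and 20.9 CPM in the mutant, overlapping, the log2 change being 0.07 ± 0.12 (edgeR adjusted p = 0.694). Neither of its 2 introns reached the read minimum for a test. HYL1 had 3 unannotated junctions, all inside its last exon, which holds a tandem repeat of 28 codons. They are described after their values were seen.

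The most read of these junctions spanned exactly 1 repeat unit of 84 bases. Its 23 wild type reads all came from replicate 3, with 0 in replicates 1 and 2, against 22, 27 and 20 reads in the mutant libraries, so it was in 1 wild type library at the mutant level and did not separate the genotypes. A junction of 168 bases, or 2 units, had 1, 5 and 0 reads in wild type, against 6, 0 and 10 in the mutant. The third, also of 84 bases, had 0 in each wild type library, against 1, 3 and 0 in the mutant. The unit spanned by the most read junction, labelled skipped below, and the next one differ at 2 of 84 bases, shown in capitals. The ends of that junction read ct and ac on the gene's strand. They could be shifted by up to 83 bases without changing the spliced sequence, so which unit is spanned is not fixed. Whether the RNA lacks a unit was not tested.
HYL1 unit skipped (1:3138115-3138198, minus strand): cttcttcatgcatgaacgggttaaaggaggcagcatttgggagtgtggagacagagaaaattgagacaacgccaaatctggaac
HYL1 next unit (1:3138031-3138114, minus strand): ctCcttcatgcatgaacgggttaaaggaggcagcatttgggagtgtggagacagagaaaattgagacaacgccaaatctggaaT

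DDL (AT3G20550, chromosome 3, 7174464 to 7177942, minus strand) stabilises primary miRNAs. Its level was 24.0, 21.5 and 20.7 CPM in wild type, against 24.8, 22.0 and 23.5 CPM in the mutant, which overlapped (log2 change 0.09 ± 0.10; edgeR adjusted p = 0.537). Its introns moved in both directions. Intron 8 (7175084 to 7175174) had 38, 24 and 38 reads in wild type, against 65, 72 and 52 in the mutant, a rise of 0.89 ± 0.31 relative to the gene (adjusted p = 0.0320). Intron 2 (7176766 to 7177225) had 45, 40 and 27 reads in wild type, against 23, 15 and 14 in the mutant, and fell by 1.05 ± 0.35 on the log2 scale (adjusted p = 0.0241). Wild type replicate 3 reached the mutant range in intron 8 per gene read, and the groups did not overlap in intron 2.

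Both DDL introns lost the call with the coverage covariate (adjusted p = 0.260 and 0.227) at nearly the same size. Leaving out wild type replicate 2 brought intron 8 to 0.50 (adjusted p 0.25), and it also lost the call with DESeq2 (0.0734) and without mutant replicate 1 (0.0900) or 2 (0.114). Intron 2 lost the call without wild type replicate 1 (0.0859) or 3 (0.0633) or mutant replicate 2 (0.112) or 3 (0.0831).

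The donors of DDL intron 8 also differed in their shares of the spliced reads. The annotated donor kept most of them, 95.3 ± 1.9% in wild type and 84.85 ± 2.84% in the mutant (SD, n = 3 each). The annotated donor, with an A rather than a G as the last exonic base, had 113, 190 and 74 spliced reads in wild type, against 66, 80 and 74 in the mutant. An unannotated donor 22 bases inside the exon, joined to the same acceptor, had 2, 6 and 2 reads in wild type, against 9, 17 and 14 in the mutant. Its share of the spliced reads went from 2.42 ± 0.64% to 15.2 ± 2.8% (SD, n = 3 each) without overlap. A further donor 5 bases inside had 2, 8 and 1 reads in wild type and 0 in each mutant library.

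With at least 10 reads in 3 libraries required, the donor 22 bases inside was not tested. It passes a minimum of 5 reads only through the mutant libraries and was picked out after its values were seen, so its share is a description. The 3 donors are written below as 3 exonic and 6 intronic bases, with capitals where they differ from the most common base at that position in 121270 Arabidopsis introns, which spells AAGGTAAGT. The donor score, a sum over the 9 positions of log2 base frequency against equal use, was 5.64 for the annotated donor, 8.02 for the donor 22 bases inside and 2.99 for the donor 5 bases inside.
DDL annotated donor: GaAgtaaAA
DDL donor 22 bases inside: aTggtaTgA
DDL donor 5 bases inside: CaAgtGaAG

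CBP80 and CBP20 form the nuclear cap-binding pair, and they did not move together. CBP80 (AT2G13540, listed in the reference as ABH1, chromosome 2, 5636884 to 5642957, plus strand) had 39.6, 33.9 and 38.7 CPM in wild type, against 60.4, 60.9 and 56.6 CPM in the mutant. The groups were well apart, and CBP80 rose by 0.67 ± 0.10 on the log2 scale, or 1.59-fold (n = 3 each; edgeR adjusted p = 0.000330). It stayed called under every alternative, between 0.60 and 0.71.

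CBP20 (AT5G44200, chromosome 5, 17801814 to 17804130, minus strand) had 39.8, 30.04 and 32.8 CPM in wild type, against 31.2, 29.6 and 28.8 CPM in the mutant. The groups overlapped, the log2 change being -0.20 ± 0.11 (edgeR adjusted p = 0.196). The difference between the changes of the 2 genes was not tested.

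Among the tested member introns, 8 and 7 of CBP80 had the largest fitted changes. The 95% counting interval of the ratio for AGO1 intron 5 (4.48 to 18.5) overlapped theirs, so this order is not resolved. Intron 7 of CBP80 (chromosome 2, 5638828 to 5639050) held 2, 4 and 2 reads in wild type, against 35, 52 and 45 in the mutant. It rose by 3.48 ± 0.48 relative to the gene (edgeR adjusted p = 1.42e-06). Over the summed libraries, intron 7 reads per gene read were 11.5 times as many in the mutant (95% counting interval 5.66 to 27.2). Reads spliced over it were 18, 48 and 29 in wild type, against 33, 53 and 32 in the mutant, so intron reads outnumbered spliced ones in mutant replicates 1 and 3 and in no wild type library.

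Intron 8 of CBP80 (5639118 to 5639296) had 0, 2 and 0 reads in wild type, against 15, 15 and 23 in the mutant (edgeR adjusted p = 0.000497). With 2 wild type reads in all, the ratio per gene read of 18.5 had a 95% counting interval from 4.86 to 156.3. The fitted log2 change of 4.06 ran from 3.53 to 6.93 when 1 library was left out. Both introns stayed called with the coverage covariate and when any 1 library was left out. However, introns 7 and 8 passed the read minimum only through the mutant libraries, so they could hardly have gone the other way. Retention of intron 7 or 8 puts a stop in frame at codon 9 or 41.

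Intron 10 of CBP80 rose by 0.97 ± 0.36 (adjusted p = 0.0419), a call lost with DESeq2 (0.0904), with a minimum of 5 reads (0.0533), with the coverage covariate (0.63, 0.486), with spliced reads as the reference (0.47, 0.448) and without wild type replicate 1 (0.77, 0.149) or 3 (0.0777) or mutant replicate 2 (0.67, 0.307) or 3 (0.0560).

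Of 5 tested introns of CBP20, 0 were called, where 26.7% of all tested introns were called higher and 1.21% lower. Intron 4, the intron with the smallest p, had 10, 16 and 6 reads in wild type, against 19, 18 and 11 in the mutant (log2 change 0.94 ± 0.47; edgeR adjusted p = 0.145). Intron 5, picked out after its values were seen, begins with AT and ends with AC, as some introns of the minor U12 spliceosome do, and is the only member intron without GT and AG ends.
CBP20 intron 5, first bases (5:17802949-17803082, minus strand): atatccttttag
CBP20 intron 5, last bases: ttccttaactcattgattac

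Such ends were found in 70 of 123004 introns. CBP20 intron 5 had 37, 56 and 22 reads in wild type, against 10, 28 and 20 in the mutant. Per gene read the mutant libraries were lower without overlap, but the change of -0.62 ± 0.36 was not called (edgeR adjusted p = 0.211). Of 34 introns with these ends that were tested across the genome, 0 were called higher, where 26.7% of all tested introns were.

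HEN1 (AT4G20910, chromosome 4, 11186010 to 11191116, minus strand), the methyltransferase that caps the 3′ ends of miRNAs, had 14.1, 15.1 and 11.3 CPM in wild type, against 13.9, 15.8 and 12.7 CPM in the mutant. The groups overlapped (log2 change 0.07 ± 0.14; edgeR adjusted p = 0.737), and its sign turned under 3 alternatives, from -0.05 to -0.03. None of its 9 introns reached the read minimum.

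HST (AT3G05040, chromosome 3, 1401271 to 1408197, minus strand), the exportin-5 homologue, changed most of the 10 genes. Its level was 22.1, 22.4 and 19.5 CPM in wild type, against 43.2, 42.2 and 38.0 CPM in the mutant. The lowest mutant library was well above the highest wild type library, and HST rose by 0.95 ± 0.10 on the log2 scale, or 1.93-fold with an approximate 95% interval from 1.69 to 2.21 (n = 3 each; edgeR adjusted p = 3.61e-05). It stayed called under every alternative, between 0.87 and 1.00.

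Intron reads of HST also rose relative to the gene. Summed over its 21 introns they were 2.33, 2.44 and 1.28 per 100 gene reads in wild type, against 6.63, 4.85 and 3.99 in the mutant, without overlap. Intron 14 (chromosome 3, 1404191 to 1404321) held 9, 0 and 0 reads in wild type, against 30, 38 and 19 in the mutant, and rose by 2.42 ± 0.67 (edgeR adjusted p = 0.00633). That call was lost with DESeq2 (adjusted p = 0.333), with spliced reads as the reference (0.105), with the coverage covariate (0.0564) and without wild type replicate 2 (1.61, 0.0591). Without wild type replicate 1, the only wild type library with reads there, the fitted change was 7.60. Intron 14 holds no stop in the frame it is entered, but its 131 bases are not a multiple of 3, so its retention shifts the frame after it. HST introns 17 and 12, both below the read minimum, were picked for having reads in the mutant but 0 in each wild type library. Intron 17 had 4, 11 and 14 reads in the mutant, and intron 12 had 10, 2 and 1. Set against a floor of 3 reads over the wild type group, they stood at 5.71-fold and 2.56-fold per gene read. These folds come from the values by which the introns were picked, so they are a description only.

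AGO1 (AT1G48410, chromosome 1, 17885633 to 17892596, minus strand), the main effector of miRNAs, was at 142.2, 137.8 and 130.9 CPM in wild type, against 183.2, 189.6 and 148.9 CPM in the mutant. Mutant replicate 3 lay nearest to wild type, but the groups did not overlap. AGO1 rose by 0.34 ± 0.11 on the log2 scale, or 1.27-fold (n = 3 each; edgeR adjusted p = 0.0364). The call was lost with the coverage covariate (0.19, adjusted p = 0.417) and without wild type replicate 2 (0.0810) or 3 (0.140) or mutant replicate 1 (0.0977) or 2 (0.148).

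AGO1 had 13 tested introns of 22. Intron 5 (chromosome 1, 17890412 to 17890509) held 4, 5 and 1 reads in wild type, against 31, 31 and 35 in the mutant, and rose by 3.12 ± 0.51 relative to the gene (edgeR adjusted p = 1.85e-05). Intron 10 (17889011 to 17889108) had 5, 5 and 1 reads in wild type, against 20, 24 and 20 in the mutant, and rose by 2.36 ± 0.55 (adjusted p = 0.00131). Both were separated without overlap and stayed called under every alternative. However, introns 5 and 10 passed the read minimum only through the mutant libraries, so they could hardly have gone the other way. Intron 5 had 0.52 ± 0.15 reads per 100 gene reads in the mutant (SD, n = 3), which is not the share of transcripts that retain it. Reads spliced over it there were 128, 187 and 74, more than the intron reads in each mutant library. Retention of introns 5 and 10 puts a stop in frame at codons 13 and 2.

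Of the other AGO1 introns, 9 were not tested. Introns 8, 11, 12 and 15 to 21 were tested and not called, between -0.63 and 0.38. Intron 3, below the read minimum, was likewise picked for having no reads in wild type, and had 15, 15 and 5 in the mutant. Set against a floor of 3 reads over the wild type group it stood at 10.3-fold per gene read, a description only. Intron 22, annotated in the 3′ UTR, was called lower at -0.59 (adjusted p = 0.0132). Its reads are those of an exon bin that other transcripts place there, so it does not measure retention, and its change was -0.04 with the coverage covariate. The call was also lost with library size as the reference (-0.27) and without wild type replicate 1 (-0.38, adjusted p = 0.0837) or mutant replicate 1 (0.110) or 2 (0.0964).

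The acceptor of AGO1 intron 4 is a pair of AGs 6 bases apart, both annotated, written below with the optional 6 bases in capitals. The form that keeps them in the mRNA made up 48.2%, 59.5% and 60.6% of the reads of the pair in wild type, against 72.0%, 66.3% and 65.5% in the mutant. The mutant libraries were all higher, yet the 2 junctions were not called (edgeR diffSpliceDGE adjusted p = 0.974 and 0.781).
AGO1 intron 4 acceptors (1:17890638-17890661, minus strand): ctaacatgttagAATCAGgtatat

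AGO2 (AT1G31280, chromosome 1, 11181711 to 11185344, plus strand), the argonaute reported as a PRMT5 substrate, had 13.1, 16.9 and 15.8 CPM in wild type, against 20.1, 19.0 and 14.7 CPM in the mutant. Mutant replicate 3 lay within the wild type range, and the log2 change of 0.23 ± 0.14 was not called (edgeR adjusted p = 0.221). The sign turned with the coverage covariate (-0.13). Its 2 introns had 6 reads in all libraries together.

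The 10 genes had 121 introns besides the 2 that the tables mark as overlapping, and a few of the 121 still share bases with another bin. Of the 121, 34 reached 10 reads in 3 or more libraries and were tested. Of these, 10 were called higher, in 5 genes, and 2 lower, at a background in which 26.7% of tested introns were called higher and 1.21% lower. With DESeq2 6 member introns were called higher, a count for which the share of all introns under DESeq2 is not given here. In 5 of the 10, no wild type library reached 10 reads: HST intron 14, CBP80 introns 7 and 8 and AGO1 introns 5 and 10. These were tested only because the mutant was high and could hardly have gone the other way. The groups were apart with the mutant higher in 11 of the 34, against 37.1% of all tested introns. With the coverage covariate, under which 16.1% of introns were called higher, 5 member introns were called, SE intron 3, CBP80 introns 7 and 8 and AGO1 introns 5 and 10.

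**Figure D3:**
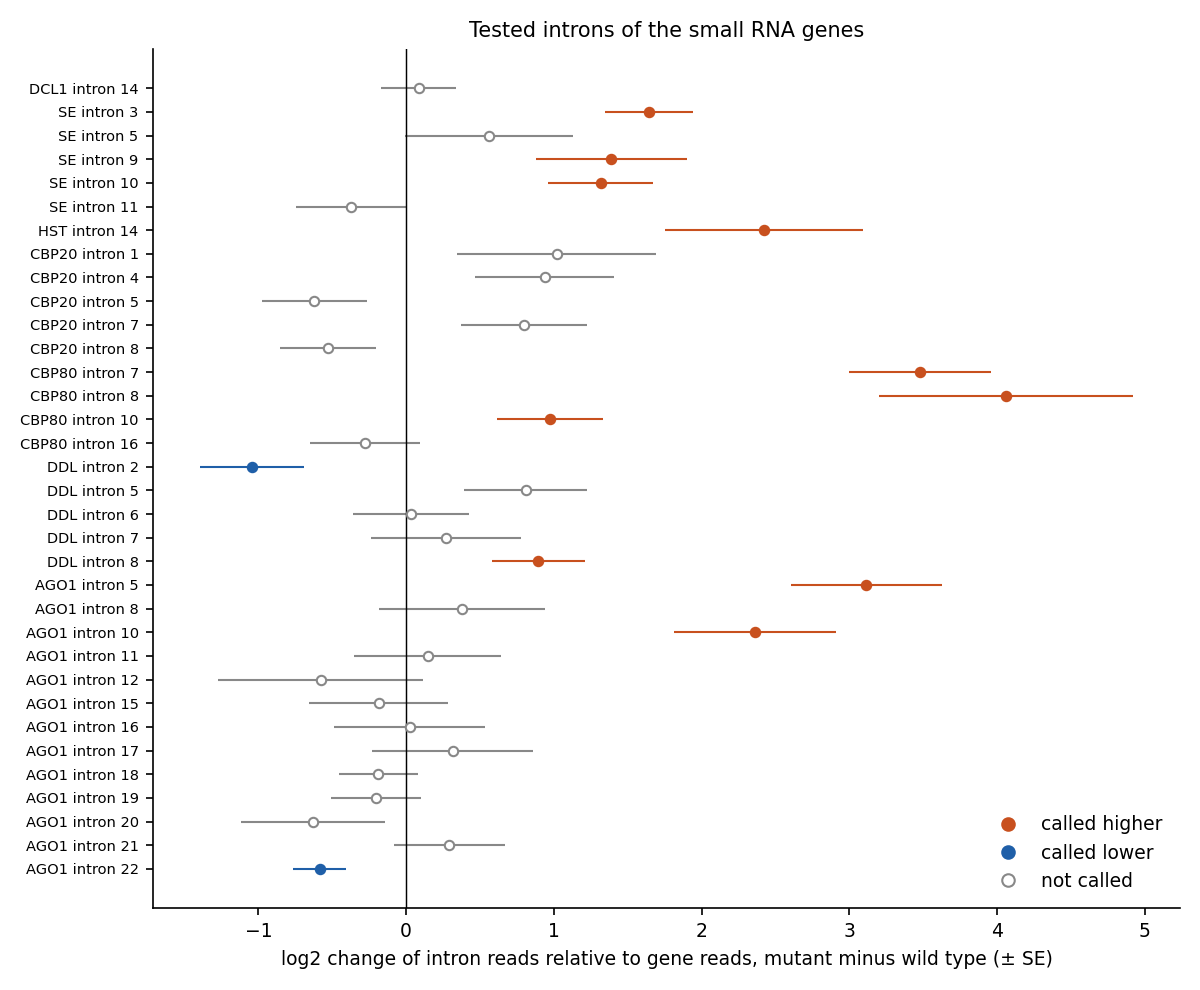
Log2 change of each of the 34 tested introns relative to its gene, mutant minus wild type, with its standard error; filled orange points are called higher, filled blue points lower and open points not called. The points farthest to the right are CBP80 introns 8 and 7 and AGO1 intron 5, at 4.06, 3.48 and 3.12.

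**Figure D4:**
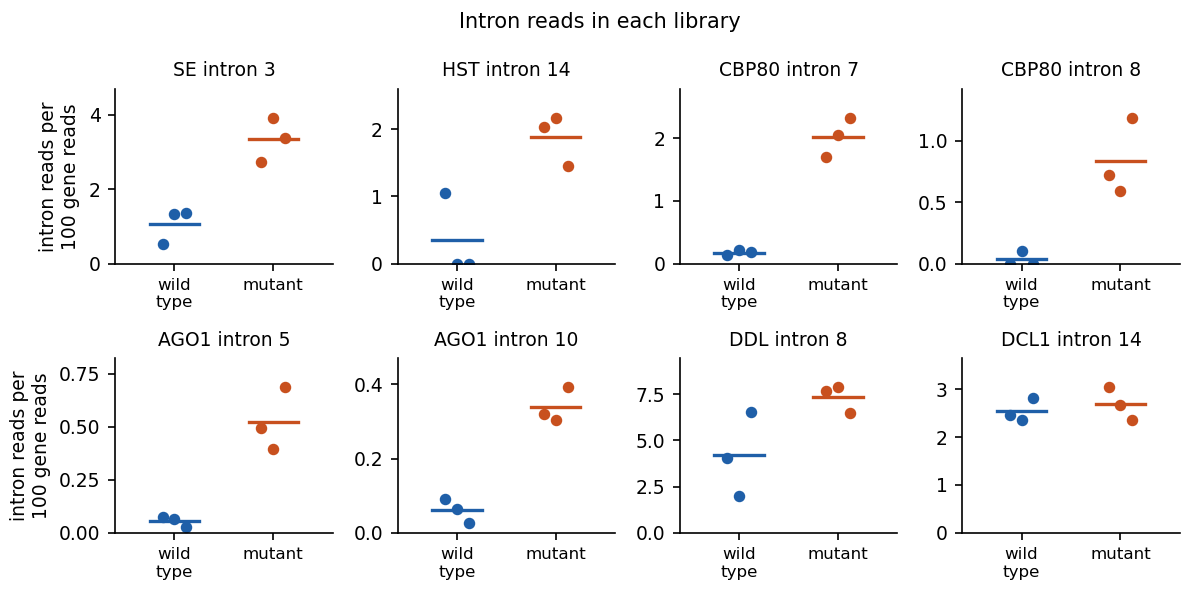
Intron reads per 100 gene reads in each library for 8 introns, with group means as lines and an axis from 0 of its own in each panel. The mutant libraries lie above wild type in 6 panels, the groups overlap for DDL intron 8, and DCL1 intron 14 stays between 2.3 and 3.1 in both.

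Taken over all introns of a gene, and without AGO1 intron 22, intron reads per 100 gene reads were higher in the mutant without overlap in 4 genes, against 43.4% of all genes with introns. CBP80 went from 3.60 ± 0.31 to 7.502 ± 0.284, SE from 4.04 ± 0.63 to 8.26 ± 0.66, HST from 2.02 ± 0.64 to 5.16 ± 1.35 and DCL1 from 3.79 ± 0.10 to 4.31 ± 0.20 (SD, n = 3 each). In DCL1, intron 15, too shallow to be tested, went from 0.26 ± 0.02 to 0.74 ± 0.17 on the same measure. Intron 14, with most of the intron reads, overlapped, so the DCL1 sum does not describe all its introns. HYL1, HEN1, CBP20, DDL, AGO1 and AGO2 overlapped. Such a sum in 4 of the 10 members is close to the 43.4% of all genes. HST, CBP80 and SE had both higher gene levels and more intron reads per gene read. The level of SE was not called with the coverage covariate or with some libraries left out. The share of all genes with both changes was not determined, so their joint occurrence is a description of these genes only.

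The donors of the introns that rose had a lower median score than those of the other tested introns, as they did genome-wide. The member scores overlapped, from 3.21 to 7.79 for the introns called higher and from 3.84 to 9.57 for the others. Only introns with GT and AG ends were scored, which leaves out CBP20 intron 5. The median donor score was 5.89 for the 10 members called higher and 7.69 for the 23 tested and not called higher. Over all genes the medians were 5.66 for 9030 and 7.23 for 24580 introns. The last exonic base was a G in 9 of the 10 and 18 of the 23, against 64.0% and 81.9% genome-wide. The member counts are too small to show a direction for this base, and the difference was not tested. Of the 10, 5 were tested only because the mutant was high. The donors of the leading introns are written below in the same form as above.
AGO1 intron 10 donor: TGggtaTAG
AGO1 intron 5 donor: TTggtGTgA
CBP80 intron 8 donor: GCggtaTgC
SE intron 3 donor: aaggtTaAG
CBP80 intron 7 donor: aaggtTTgC
HST intron 14 donor: aaggtTTAt

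These scored 3.21, 4.18, 5.71, 6.59, 7.31 and 7.79 in that order. DCL1 intron 14 scored 7.88 and was not called.

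Of 133 member exon bins tested relative to their gene, 0 were called by edgeR, where 0.114% of all tested exon bins were. Of the 170 junctions, 48 were unannotated, and 6 of those had at least 10 reads in total. The tandem acceptor of AGO1 gave the 2 junctions that could be tested, of which 0 were called against 5.08% of all tested junctions.

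Other genes of small RNA pathways were counted from lists by role. Of 10 tested AGO and DCL genes outside the 10 members, 4 rose and 1 fell. Over all tested genes 18.6% were called higher and 15.9% lower, against which this and the following counts are to be read. AGO3, the neighbour and nearest relative of AGO2, went from 0.57 ± 0.26 to 2.29 ± 0.22 CPM (SD, n = 3 each), up by 2.05 ± 0.34 on the log2 scale (edgeR adjusted p = 0.000911). DCL4, the enzyme of 21-base secondary small interfering RNAs, went from 27.0 ± 1.9 to 44.7 ± 4.3 CPM (0.73; adjusted p = 0.000287). AGO4, which acts in DNA methylation, rose by 0.43, AGO8 rose from a level below 0.1 CPM, and AGO7, the partner of miR390, fell by 0.69 on the log2 scale. AGO3 and DCL4 stayed called under every alternative, while AGO8 was not called with the coverage covariate (adjusted p = 0.164). AGO4 lost the call with it (0.0700) and without wild type replicate 2 (0.0544) or 3 (0.0745) or mutant replicate 2 (0.0754). AGO7 lost it with the covariate (0.0607) and without wild type replicate 2 (0.0779) or 3 (0.0835) or mutant replicate 1 (0.0693) or 3 (0.0526).

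Of 20 genes of miRNA processing and turnover, 5 rose and 0 fell, against the same 18.6% and 15.9% of all tested genes. They were CPL2, a phosphatase of the CPL1 family (0.89), NOT2B (0.86) and NOT2A (0.54), which link polymerase II to DCL1, the splicing factor STA1 (0.49) and the RNA-binding protein GRP7 (0.81). CPL2, NOT2A and NOT2B stayed called under every alternative. STA1 was not called with the coverage covariate (adjusted p = 0.162), and GRP7 was not called with DESeq2 (0.0711), without the filter on low counts (0.0820) or when any library but wild type replicate 1 was left out (0.0756 to 0.131). Of 9 genes of secondary small interfering RNAs and double-stranded RNA binding, RDR1, SGS3 and DRB5 rose by 0.60, 0.42 and 0.48, while RDR6 and DRB3 fell by 0.38 and 0.37 on the log2 scale. SGS3 and RDR6 stayed called under every alternative, and RDR1 lost the call with the coverage covariate (0.127). DRB5 lost it with the covariate (0.151) and without wild type replicate 1 (0.0640) or 3 (0.0839) or mutant replicate 2 (0.112) or 3 (0.103). DRB3 lost it with the covariate (0.447) and without wild type replicate 1 (0.0672) or 2 (0.0564) or mutant replicate 1 (0.106) or 2 (0.0614).

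Targets of conserved miRNAs moved both ways. Of 46 tested, 8 rose and 16 fell, where 18.6% of all tested genes rose and 15.9% fell, with a median of -0.26 against -0.02 for all genes. With the coverage covariate 4 were called higher and 9 lower. The miR159 target MYB33 rose by 1.07 and the miR166 target HB-8 by 0.98, while SPL3 (miR156), APS4 (miR395) and ARF10 (miR160) fell by 1.33, 0.85 and 0.55 on the log2 scale. These 5 stayed called under every alternative.

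**Figure D5:**
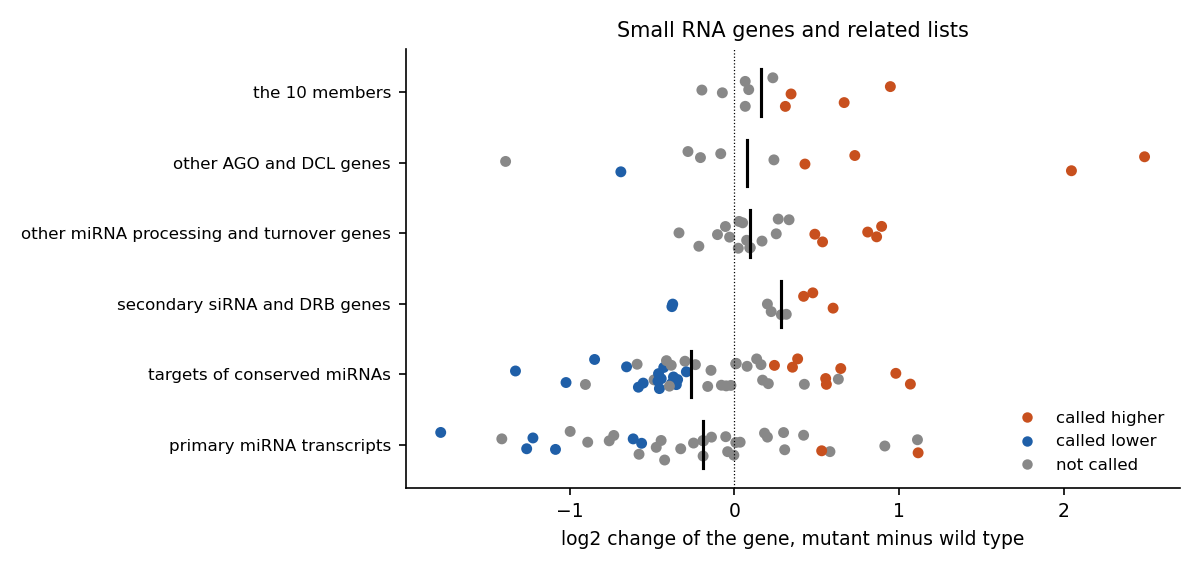
Log2 change of each tested gene, mutant minus wild type, for the 10 members and 5 lists of related genes; orange points are called higher, blue points lower, grey points not called, and black lines are list medians. The lists of AGO and DCL genes and of processing genes hold more orange than blue points, and the targets and primary transcripts more blue than orange.

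Primary miRNA transcripts were mostly too rare to test. Of 178 annotated MIR loci, 36 were tested, of which 2 rose and 6 fell, with a median of -0.19. The share that fell is near the 15.9% of all tested genes. MIR171b, MIR398c, MIR163 and MIR824 fell by 1.78, 1.22, 1.09 and 0.56 on the log2 scale and MIR850 rose by 0.53. MIR398c and MIR824 overlap another gene, which the counts may mix. Without wild type replicate 1 or 2 MIR398c was not called (adjusted p = 0.0719 and 0.0624), nor was MIR824 without wild type replicate 2 (0.0587) or mutant replicate 2 (0.0548), nor MIR850 without wild type replicate 3 (0.0899) or mutant replicate 2 (0.0654) or 3 (0.0997). With the coverage covariate 2 primary transcripts were called, both higher, so that none of those that fell kept the call. Over all alternatives the log2 change ran from -1.90 to -1.68 for MIR171b, -1.22 to -0.88 for MIR163, -1.42 to -0.95 for MIR398c and -0.61 to -0.52 for MIR824.

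Of the loci that feed back on the members, MIR162a was the most read. It had 12.7, 10.1 and 11.8 CPM in wild type, against 7.28, 9.46 and 12.3 CPM in the mutant, overlapping (log2 change -0.25 ± 0.18; edgeR adjusted p = 0.313; 0.16 with the coverage covariate). MIR168a had 10, 17 and 7 reads in wild type, against 13, 14 and 10 in the mutant (0.31; adjusted p = 0.641). MIR162b, MIR168b and MIR403 had at most 11 reads in any library and were not tested, so a difference was not detectable at this depth.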

How the data were processed

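The authors deposited unnormalized counts of reads, as whole numbers, in separate tables of genes, of exon and intron bins, and of splice junctions. Per the submitters' processing notes STAR and TAIR10 were used, with no role stated; which program counted reads, and whether by strand, is not given in the sources. Coordinates are those of the deposited tables, and sequences were read from TAIR10.1, where 98.59% of 123004 introns had GT and AG ends at them. Symbols are those of the lists used; 32835 loci matched the reference by locus tag.

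Genes were tested with edgeR 4.0.16 in R 4.3.3 (robust quasi-likelihood, TMM factors, default expression filter, Benjamini-Hochberg over all genes). The offset for introns and exon bins was log(gene count + 1), and they needed 10 reads in 3 libraries and a mean gene count of 20. Junctions that share an end were tested with diffSpliceDGE. Alternatives were RLE factors, DESeq2 1.42.0, other filters and references, libraries left out, a replicate block and a coverage covariate. All features were fitted and only the members' values are given. The tests were tried on simulated data. Nothing states that libraries came from separate cultures, so p-values measure the spread between libraries, which may be technical.

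The 10 genes and all lists were chosen with earlier results of these data known. The rule named all members, their called or best introns, the MIR loci of the feedback miRNAs and up to 5 called genes per list. DDL and HYL1 junctions and CBP20 intron 5 were named after their values were seen. HST introns 12 and 17 and AGO1 intron 3 were named for their values, and the PRMT5 intron was picked by hand.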

Additional observations from a re-analysis of the deposited data

Results flagged for a closer look

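Unannotated junctions and untested introns of the 10 genes, without the 2 marked as overlapping, were looked through for those with at least 30 reads in all and every mutant library above every wild type library relative to total gene counts. In the mutant libraries together, the DDL donor 22 bases inside the exon had 40 reads, against 10 in wild type. Introns below the read minimum that met the same rule were AGO1 intron 3 with 35 mutant reads against 0 in wild type, SE intron 2 with 33 against 5, HST intron 15 with 31 against 13, and DCL1 intron 15 with 42 against 17. All 5 were picked for this difference, so it is a description. HST itself was higher in the mutant, and relative to the gene its intron 15 overlapped between the groups. It had 0.35, 0.63 and 0.37 reads per 100 gene reads in wild type, against 1.08, 0.51 and 0.46 in the mutant. Groups of 3 libraries are too small to be searched for single outlying libraries.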

How the results depend on the processing

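HST, CBP80, CBP80 introns 7 and 8, AGO1 introns 5 and 10 and SE intron 3 kept direction and call under every alternative run for them. The named introns of CBP80 and AGO1 passed the read minimum only through the mutant libraries. Their direction was thus close to fixed before any alternative was run. Over 605 recomputed values of 54 single genes, introns and junctions, 503 kept direction and side of the threshold, 90 lost the call and 12 changed sign, each with a value that was not called. With the coverage covariate 4050 genes, 5680 introns, 52 exon bins and 132 junctions were called, of them 2 member genes and 5 member introns; 2 AGO and DCL genes, 3 genes of secondary small interfering RNAs, 13 targets and 2 primary transcripts. Under it the log2 change was -0.046 for HEN1, -0.13 for AGO2, -0.082 for DCL1 intron 14, -0.23 for MIR838 and 0.16 for MIR162a. With library size as the reference, a setting in which the gene's own change also counts, 29545 exon bins were called, 54 of them members'. With the cluster total as offset 496 junctions were called, and with at least 5 reads 1 member junction, that of DDL, which was picked for its values. The cause of these changes in the counts was not tested.

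With 1 library left out, calls ranged from 5110 to 8033 over all genes and from 7384 to 8855 over all introns. In the same fits they ranged from 2 to 4 for member genes (2 without wild type replicate 2 or 3 or mutant replicate 1 or 2). For member introns they ranged from 6 to 9 (6 without mutant replicate 2). Calls ranged from 47 to 11253 for exon bins and from 0 to 19 for member exon bins, the highest of both without mutant replicate 3. They ranged from 3 to 5 for AGO and DCL genes, 3 to 7 for secondary small interfering RNA genes, 14 to 22 for targets and 3 to 6 for primary transcripts. The log2 change ranged from -0.18 to 0.013 for DCL1, -0.050 to 0.13 for HYL1, -0.043 to 0.16 for HEN1, -0.0071 to 0.17 for DCL1 intron 14 and -0.057 to 0.13 for MIR838.

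Replicate numbers did not pair the libraries: the correlation of same-numbered libraries' deviations from their group means was -0.14, -0.04 and 0.01. With the replicate block 6830 genes, 8944 introns, 211 junctions and 42 exon bins were called, and 4 member genes remained called; of the named genes and introns, DRB3 and SE intron 9 lost the call with it (adjusted p = 0.0578 and 0.0697).

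Depth limited the introns: 87 of the 121 were not tested, so for HYL1, HEN1 and AGO2 no intron was compared. Of the 121, 8 had no read in any library.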
